A study of Mus musculus with 40 samples.

Results

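Regulatory T cells (Treg) of the liver were compared with Treg of the other solid organs of the series, kidney, lung and pancreas. The 3 liver Treg libraries were set against the unweighted mean of the 3 kidney, 3 lung and 3 pancreas Treg libraries, so the comparison used 12 of the 40 libraries. All 40 came from perfused wild-type mice with digested tissues, 30 from CD4+ cells positive for a Foxp3Thy1.1 reporter (Treg) and 10 from CD4+ Foxp3Thy1.1- cells (conventional T cells, Tconv). Beside the 4 solid organs the 10 sources included blood, spleen, lymph node, Peyer's patch, intraepithelial lymphocytes (IEL) and lamina propria lymphocytes (LPL), and every source gave 3 libraries of Treg and 1 of Tconv. Each library held 2000 cells sorted by flow cytometry. The reporter defines Treg by Foxp3 expression alone, so that cells of thymic and of peripheral origin, resting and activated cells, and cells passing through an organ and cells lodged in it enter the same library. Age and sex are not in the labels, nor is it given whether libraries came from separate animals, so p-values measure only the spread between these samples.

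Treg restrain immune responses and, in peripheral organs, support tissue repair. Treg that settle in an organ take up an activated state with factors such as Bhlhe40, products such as interleukin 10 and receptors such as Ccr8, whereas circulating Treg keep Klf2, Klf3 and sphingosine receptors for passage between blood and lymph. Soon after a stimulus, T cells also transcribe the early response genes of the Fos, Jun, Nr4a and Egr families, whose products switch on later programmes and whose mRNA decays quickly. The liver receives blood from the gut and holds many lymphocytes in its sinusoids, in direct contact with the bloodstream.

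RNA was counted by 3′ sequencing, in which the reads of a transcript come from its 3′ end, and levels are CPM, counts scaled to a common library total by TMM. Total counts of the 12 libraries ran from 17545858 to 27226115, with 20326750 to 25242492 in liver. Foxp3, the factor that defines Treg, was at 229.7, 289.8 and 212 CPM in liver Treg replicates 1, 3 and 4, the order used throughout, and from 134 to 288 CPM with a median of 166 in the other 9. The liver Tconv library had 0.382 CPM. RNA of other cell types was measurable. The 22 hepatocyte markers made up 0.00724% to 0.0278% of counts in liver and up to 0.0251% in the other 9. The 21 acinar markers of the pancreas reached 13.6% in pancreas and 0.00174% in liver, and the 14 myeloid markers made up 0.0439% to 0.0846% in liver against 0.0335% to 0.270%. Of 21 hepatocyte markers tested, 12 were called higher in liver and none lower (median log2 fold change 7.55), and Alb, albumin, was at 55.3, 10.4 and 64.98 CPM in liver and at most 2.49 CPM elsewhere. Of 8 markers of liver macrophages tested 2 were called higher, Clec4f at 2.11, 1.60 and 4.88 CPM and Cd5l at 1.20, 1.23 and 2.28 CPM in liver, and both were at 0 in the other 9. Over the 8 the median log2 fold change was negative, at -1.78, with none called lower. The macrophage list made up 0.000666% to 0.00268% of counts in liver and up to 0.0338% in the other 9. Alb, Clec4f and Cd5l were chosen after their values were seen, and Clec4f was not called when any 1 liver library was left out. Timd4 and Marco of the same 10 markers, and Clec4g and Lyve1, markers of liver sinusoid endothelium, were at 0 in all 3 liver libraries. The markers that were called count among the genes higher in liver below, and their part in the results was not tested beyond the counts with these markers removed. The X-inactivation transcript Xist was at 58.0 to 219 CPM in lung Treg 5 and 6 and pancreas Treg 1 and 5 and at no more than 0.0956 CPM in the other 8 libraries, which included all 3 from liver. The long non-coding transcript Gm26917 took 2.12% to 4.67% of counts in liver and 0.272% to 2.23% in the other 9. In blood Treg 2, 4 and 5 it took 2.49%, 2.20% and 2.48%, inside the liver range, as did Peyer's patch Treg 1 at 3.56%. Spleen and lymph node Treg had 0.176% to 0.434%.

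Of 17909 genes tested, 402 were higher in liver Treg (2.24%) and 417 were lower (2.33%) at an adjusted p below 0.05 (edgeR, quasi-likelihood F test, Benjamini-Hochberg). Among them, 190 and 331 differed by at least 1 on the log2 scale. In a further count by level, all 3 liver libraries lay above all 9 others for 339 genes (1.89%) and below all 9 for 318 (1.78%). DESeq2 called 482 higher and 1057 lower. With liver Treg 1, 3 or 4 left out, 323, 316 and 343 genes were called in all, and with the 9 other libraries taken as 1 group, 47. A set of 95 called genes, most but not all of them named here, was followed through the settings tried. Of these, 75, 79 and 77 passed without liver Treg 1, 3 or 4, and none changed direction in any setting. In bulk RNA, fewer cells of a kind and less RNA per cell cannot be told apart, here and in all results that follow.

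In overall profile, liver Treg stood nearer to Treg of blood and spleen than to those of the other solid organs. Euclidean distances of log2 CPM, taken over the 500 most variable genes, averaged 45.5 between liver libraries, 54.3 to blood and 55.8 to spleen. They averaged 76.0 to lung, 86.3 to kidney and 104.9 to pancreas. With the markers of other cells removed, the distances were 49.6 to blood, 53.3 to spleen, 71.5 to lung, 84.6 to kidney and 88.2 to pancreas. Whether the share of Gm26917 common to liver and blood bears on these distances was not tested.

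**Figure D1:**
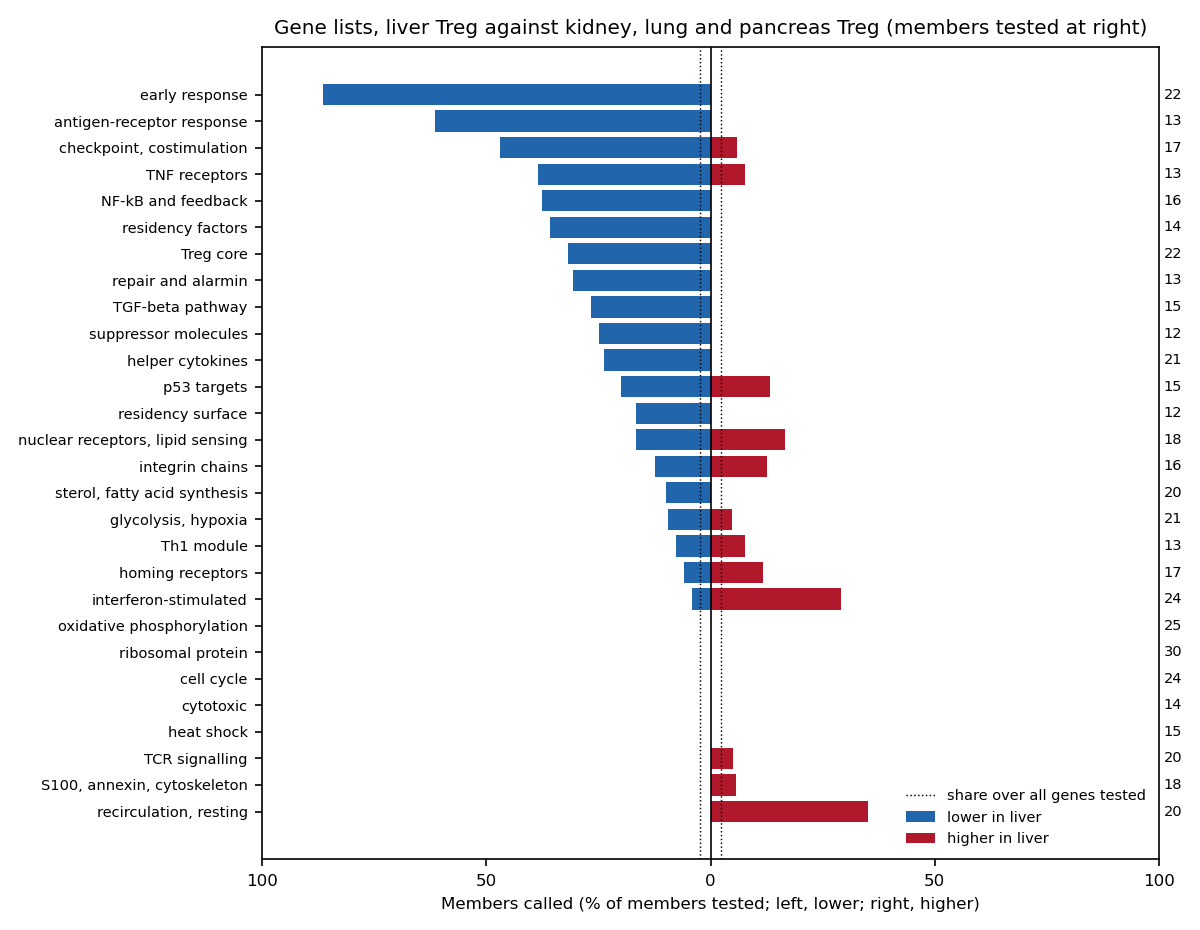
Share of the tested members of each of the 28 T cell gene lists that were called lower (bars to the left) or higher (bars to the right) in liver Treg against kidney, lung and pancreas Treg, in percent, with the number tested at the right and the shares over all genes as dotted lines. The early response list has 19 of 22 members to the left, and the recirculation list has 7 of 20 to the right.

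Of the 28 T cell lists the early response list showed the lowest median. Of its 22 tested members 19 fell in liver Treg, none rose, and the median log2 fold change was -3.19 beside -0.01 over all 17909 genes. Jun, Ier5 and Klf6 were not called, and Fosl1 was too low to be tested. For 9 of the 22, all 3 liver libraries lay below all 9 others.

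Fos, the partner of Jun proteins in the AP-1 factor, was at 15.7, 21.1 and 19.7 CPM in liver. It reached 809, 1166 and 1317 CPM in kidney (replicates 1, 3 and 5), 1191, 1818 and 398 in pancreas (1, 5 and 6) and 317, 19.1 and 30.5 in lung (1, 5 and 6). Lung Treg 5 lay within the liver range and lung Treg 6 a little above it, whereas lung Treg 1 was more than 10 times higher, as were all kidney and pancreas libraries. The log2 fold change was -4.83 ± 0.93 (SE) with an edgeR adjusted p of 0.00322. Junb, a second AP-1 subunit, was at 441, 458 and 547 CPM in liver and from 652 to 7502 CPM with a median of 4776 in the other 9, without overlap (log2 fold change -3.09 ± 0.56, edgeR adjusted p = 0.00195). Atf3, a stress-induced repressor, was at 1.49, 0.0472 and 0.217 CPM in liver and from 2.82 to 329 CPM with a median of 62.8 in the others, again without overlap (-7.00 ± 1.49, edgeR adjusted p = 0.00701). Without liver Treg 3 or 4 Atf3 was not called.

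The feedback genes of the list moved the same way. Dusp1, a phosphatase that switches off MAP kinases, stood at 90.2, 169 and 123 CPM in liver and from 175 to 3929.7 CPM with a median of 2225 in the other 9. The liver libraries lay below every other library, but lung Treg 5 and 6 came within 30 CPM of the highest of them (-3.54 ± 0.68, edgeR adjusted p = 0.00322). Sik1, a kinase induced by cyclic AMP, had 30.8, 39.9 and 25.1 CPM in liver and from 31.2 to 1274 CPM with a median of 706 elsewhere, with lung Treg 5 inside the liver range (-4.36 ± 0.85). Csrnp1, a nuclear protein induced with AP-1, and Gadd45b, a stress sensor, were below all 9 other libraries and fell by 2.56 and 3.28 on the log2 scale.

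Single libraries set the size of this difference within lung. The median over the 22 members of log2(CPM + 1) minus the liver mean was 2.85, 3.98 and 3.95 in kidney Treg and 2.90, 3.12 and 2.72 in pancreas Treg. In lung Treg it was 2.69 in replicate 1 but 0.14 and 0.42 in replicates 5 and 6. Blood, spleen and lymph node Treg lay between -0.49 and 0.10, beside the liver. LPL and IEL Treg lay between 2.14 and 3.42, and Peyer's patch Treg at 2.35, 0.27 and 0.05. Libraries within 0.50 of the liver mean thus came from blood, spleen, lymph node, Peyer's patch and lung.

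**Figure D2:**
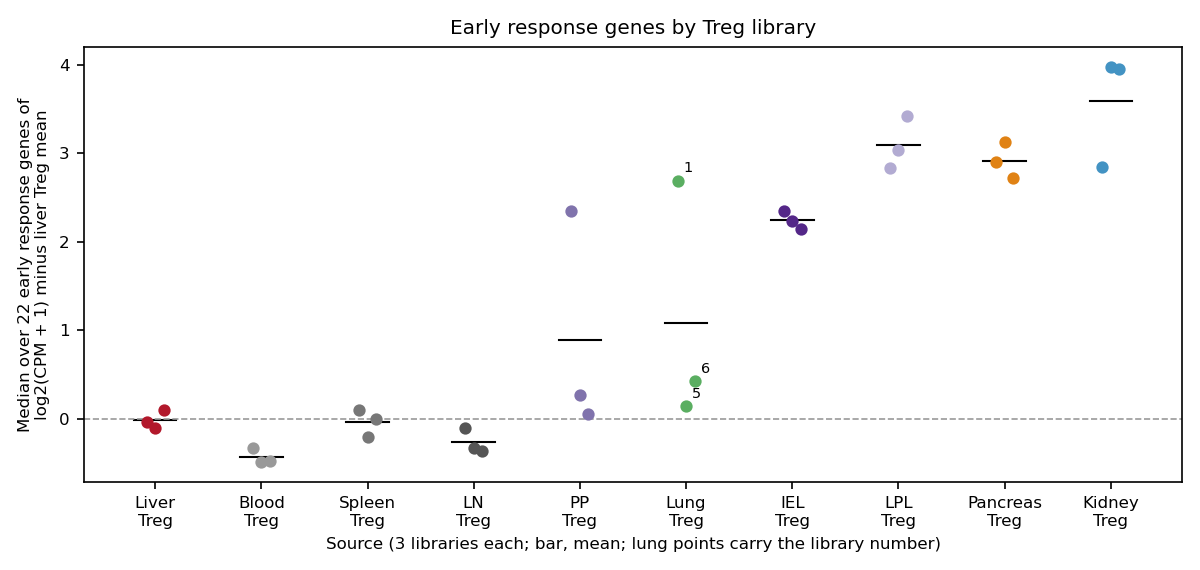
Median over the 22 early response genes of log2(CPM + 1) minus the liver Treg mean (vertical axis) for the 3 Treg libraries of each source, with a bar at their mean and the library numbers beside the lung points. Kidney and pancreas Treg lie between 2.72 and 3.98, while lung Treg 5 and 6 lie at 0.14 and 0.42 near blood, spleen and lymph node (LN).

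Against kidney alone all 22 members fell, against pancreas 12 and against lung 7. The 3 comparisons share the liver libraries. In the comparison with the 3 organs together, 11, 8 and 10 of the 22 members were called without liver Treg 1, 3 or 4. With the 9 other libraries as 1 group no member was called by edgeR, while 20 had an unadjusted p below 0.05. Without the 4 libraries with Xist 18 were called, and without the lung libraries 20.

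Promoters of the early response genes are shown for the cyclic AMP response element, the site through which CREB-type factors act. In the 200 bases before the start of transcription in RefSeq (build GRCm38.p6), TGACGTCA, on either strand, was found in 4 of the 17 called members that matched, Btg2, Dusp1, Maff and Ppp1r15a, beside 1.47% of all 32851 windows. Of the 5 other motifs searched in this set, the NF-kB element was also in 4 (Fosb, Fosl2, Ier3 and Maff), the AP-1 element in 2, the gamma-activated site and the serum response element in 1 each and the interferon-stimulated element in none. A match of letters is a description and shows no binding. The windows of Dusp1 (chr17:26508473-26508672, minus strand) and of Ppp1r15a (chr7:45526269-45526468, minus strand), which encodes a subunit of the phosphatase that ends the integrated stress response, are printed 5′ to 3′ with the element in capitals. It lies 143 to 136 bases before the start in Dusp1 and 12 to 5 bases in Ppp1r15a.
Dusp1: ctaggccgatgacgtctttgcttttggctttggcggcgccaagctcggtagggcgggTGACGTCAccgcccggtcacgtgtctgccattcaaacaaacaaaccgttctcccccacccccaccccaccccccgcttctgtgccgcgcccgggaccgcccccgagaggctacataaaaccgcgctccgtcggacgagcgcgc
Ppp1r15a: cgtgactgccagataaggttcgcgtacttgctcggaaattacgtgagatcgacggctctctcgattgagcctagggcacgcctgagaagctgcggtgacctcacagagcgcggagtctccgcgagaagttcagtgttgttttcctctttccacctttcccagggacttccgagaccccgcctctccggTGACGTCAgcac

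Genes read out from the antigen receptor were lower as well. Of the 13 on the antigen signal list, 8 fell and none rose, with a median of -1.84. Nr4a1 (ENSMUSG00000023034.7, chromosome 15, 101254269 to 101274795, mm10), an orphan nuclear receptor whose level follows antigen receptor signals, was at 49.5, 87.8 and 67.7 CPM in liver. It was at 2053, 5402 and 5388 CPM in kidney, 1629, 119 and 253 in lung and 2459.9, 3114 and 813 in pancreas. All 9 lay above the 3 liver libraries, with lung Treg 5 nearest (-4.74 ± 0.66, edgeR adjusted p = 1.39e-04). Its relatives Nr4a2 and Nr4a3 fell by 5.89 and 5.62 on the log2 scale, with Nr4a2 of lung Treg 5 inside the liver range.

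Cd83, a membrane protein of activated lymphocytes, was at 59.8, 71.03 and 67.8 CPM in liver and from 98.6 to 938 CPM with a median of 562 in the others, without overlap (-2.86 ± 0.44, edgeR adjusted p = 3.13e-04). Spry1, an inhibitor of receptor kinase signalling, was at 23.04, 15.6 and 20.1 CPM in liver, at 189.9, 559 and 392 in kidney, 39.4, 25.4 and 50.2 in lung and 263, 339 and 125 in pancreas. The liver libraries were below all others (-2.96 ± 0.33), most clearly below kidney (-4.28 ± 0.38) and pancreas (-3.63 ± 0.37), whereas the difference from lung did not pass (-0.97 ± 0.34, edgeR adjusted p = 0.112). Egr1, a zinc finger factor of the first response to signals, was at 44.2, 40.4 and 54.1 CPM in liver and from 32.7 to 446 CPM with a median of 158 elsewhere, and lung Treg 5 lay below the liver (-1.84 ± 0.34).

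Of the 16 NF-kB subunits and feedback genes, 6 fell and none rose (median -0.83), and leaving out liver Treg 1, 3 or 4 gave 2 lower in each case. Nfkbid, a nuclear inhibitor that steers Foxp3 induction, was at 27.1, 20.8 and 39.7 CPM in liver and from 78.3 to 962 CPM with a median of 201 in the other 9, with no overlap (-3.40 ± 0.43, edgeR adjusted p = 6.54e-05). Nfkbiz, which encodes a further nuclear member of that family, was at 23.5, 20.6 and 23.3 CPM against from 58.7 to 1392 CPM with a median of 439 (-4.34 ± 0.60), also without overlap. Tnfaip3, the enzyme A20 that ends NF-kB signals, was at 259, 319 and 239 CPM in liver and 4175, 219 and 216 in lung, where replicates 5 and 6 fell below all liver libraries. In kidney it was at 4261, 5807 and 5693 CPM and in pancreas at 4000.0, 4146 and 2614 (-3.50 ± 0.77, edgeR adjusted p = 0.00893). It was not called without liver Treg 1, 3 or 4.

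The NF-kB element, searched by its consensus on both strands, was found before the start of 4 of the 5 matched members that fell, Nfkbid, Nfkbie, Rel and Tnfaip3, beside 3.18% of all windows. Of the other motifs searched in this set, the AP-1 element was in 2. The cyclic AMP response element and the gamma-activated site were in 1 each and the rest in none. Feedback genes of the NF-kB pathway are textbook targets of NF-kB itself. The window of Tnfaip3 (chr10:19015411-19015610, minus strand) holds the NF-kB element 125 to 116 and 12 to 3 bases before the start, and a second annotated start of the gene has none. That of Nfkbie (chr17:45555500-45555699, plus strand), which encodes the inhibitor IkB epsilon, holds it 106 to 97 bases before. The elements are in capitals.
Tnfaip3: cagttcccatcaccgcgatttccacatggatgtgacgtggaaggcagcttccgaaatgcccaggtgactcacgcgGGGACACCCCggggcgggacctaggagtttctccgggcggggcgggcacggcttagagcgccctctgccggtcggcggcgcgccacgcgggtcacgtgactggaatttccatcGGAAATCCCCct
Nfkbie: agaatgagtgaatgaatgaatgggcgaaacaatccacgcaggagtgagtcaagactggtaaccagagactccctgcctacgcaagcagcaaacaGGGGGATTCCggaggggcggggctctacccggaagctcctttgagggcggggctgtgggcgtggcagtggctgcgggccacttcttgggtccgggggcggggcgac

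Transcription factors of tissue residency were lower in liver Treg where they differed. Of 14 such factors 5 fell (Bhlhe40, Id2, Nfil3, Gata3 and Rbpj) and none rose, with a median of -1.17. Bhlhe40 (ENSMUSG00000030103.11, chromosome 6, 108660629 to 108666925), a repressor that sustains effector cytokine production and resident T cells, was at 47.4, 38.3 and 39.8 CPM in liver. Kidney had 741, 1523 and 1649 CPM, pancreas 1096, 937 and 1063 and lung 786, 99.1 and 217. Every other library lay above every liver library, with the smallest gap to lung Treg 5. The log2 fold change was -4.24 ± 0.56 (edgeR adjusted p = 9.71e-05), and -4.96 ± 0.62, -3.13 ± 0.57 and -4.62 ± 0.61 against kidney, lung and pancreas alone. It passed in every setting tried. In Treg of blood, spleen and lymph node Bhlhe40 ran from 6.53 to 137 CPM with a median of 70.5, so that the liver libraries lay within that range (0.02 ± 0.43, edgeR adjusted p = 1).

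Id2, an inhibitor of E proteins in effector cells, was at 105, 88.8 and 114 CPM in liver and from 169.5 to 714 CPM with a median of 339 in the others, without overlap (-1.90 ± 0.37, edgeR adjusted p = 0.00325). Gata3, which maintains Treg in barrier tissue, was at 358, 368 and 339 CPM against from 456 to 1286 CPM with a median of 787, also without overlap (-1.09 ± 0.25). Gata3 was not called without liver Treg 1, 3 or 4 (edgeR adjusted p = 0.0621, 0.0535 and 0.0718), and the 14 factors held 4, 3 and 3 called lower. Nfil3, a leucine zipper factor, was at 34.9, 25.9 and 33.5 CPM in liver, and lung Treg 6 lay below the liver at the lowest of the others (from 21.4 to 492 CPM with a median of 238; -2.81 ± 0.58). Of 12 surface and signalling genes of residency, Rgs16 and Rgs2, brakes on chemokine receptor signals, fell. Rgs2 was at 24.8, 35.9 and 36.4 CPM in liver and from 107 to 1786 CPM with a median of 803 elsewhere, without overlap (-4.78 ± 0.86, edgeR adjusted p = 0.00195). Without kidney Treg 1 or lung Treg 1, 5 and 4 of the 12 were called lower.

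**Figure D3:**
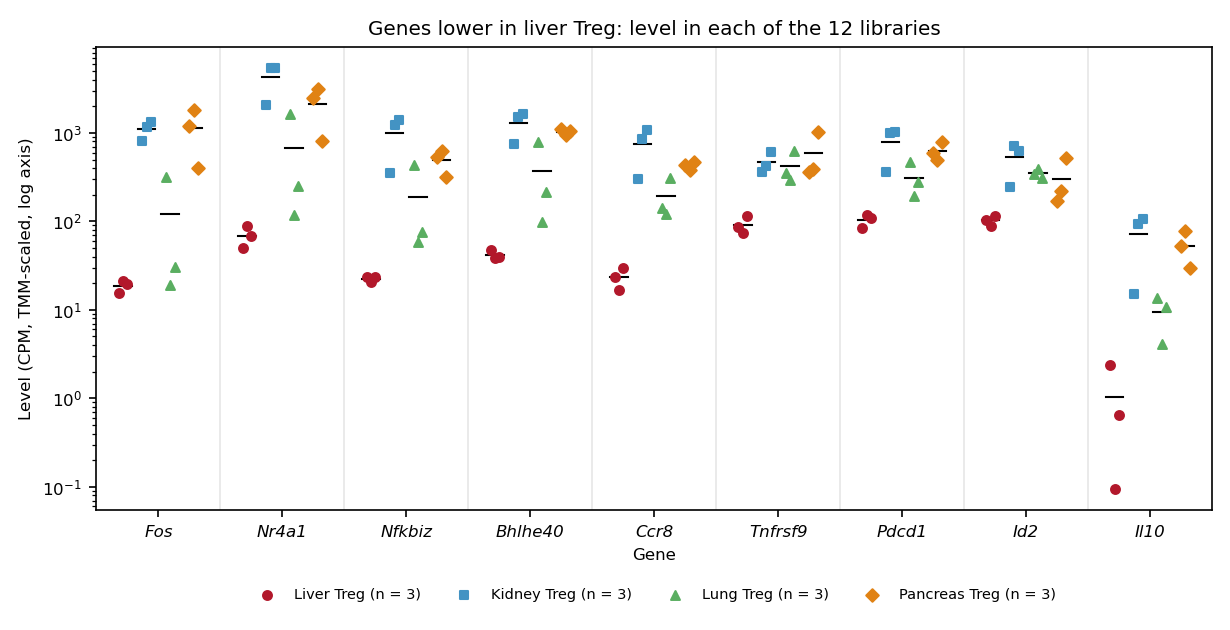
Levels in CPM on a log axis of 9 genes lower in liver Treg, with 1 point for each of the 3 libraries of an organ and a bar at their mean. For Bhlhe40 and Ccr8 all 9 other libraries lie above the 3 liver libraries, and for Fos lung Treg 5 lies among them.

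Receptors that direct T cells into tissues split in direction. Ccr8 (ENSMUSG00000042262.5, chromosome 9, 120092114 to 120094906), the chemokine receptor of activated tissue Treg, had the smallest p of the genes that fell. It was at 23.4, 16.9 and 29.9 CPM in liver, 297, 864 and 1071 in kidney, 140.4, 121 and 313 in lung and 436, 381 and 473 in pancreas. No library of another organ came within 4 times the highest liver library (-4.08 ± 0.42, edgeR adjusted p = 6.02e-06), lung Treg 5 and 6 included. Gpr15, a receptor that draws T cells to the colon, was higher in liver, at 80.7, 82.02 and 91.2 CPM, than in any other library (from 5.24 to 61.5 CPM with a median of 21.97; 2.01 ± 0.29, edgeR adjusted p = 1.67e-04). Ccr10, a receptor for chemokines of skin and mucosa, was at 35.6, 33.8 and 93.2 CPM in liver, at 12.7, 21.9 and 36.9 in kidney, 38.04, 23.2 and 25.9 in lung and 1.65, 1.69 and 0 in pancreas. It rose in the comparison with the 3 organs (2.54 ± 0.52, edgeR adjusted p = 0.00561), and it passed against pancreas (5.54 ± 0.86) but not against kidney (1.18 ± 0.70) or lung (0.90 ± 0.70), whose ranges overlap with liver. Of the 17 receptors on this list these were the 3 that were called, 2 higher and 1 lower. Ccr10 was not called without liver Treg 4 or without the pancreas libraries, and 3 and 2 receptors were lower without kidney Treg 1 or lung Treg 1.

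Among 16 integrin chains, Itgb7 and Itga6 rose and Itgb8 and Itgav fell. Itgb7 (ENSMUSG00000001281.10, chromosome 15, 102215995 to 102231944), the beta chain of the gut homing integrin with Itga4 and of the epithelial one with Itgae, was at 2928, 2617 and 3792 CPM in liver. It was at 1594, 2444 and 2105 CPM in kidney, 2273, 2548 and 1800.1 in lung and 1432, 1721 and 1043 in pancreas. The lowest liver library lay just above the highest other, lung Treg 5. The log2 fold change was 0.75 ± 0.14 (edgeR adjusted p = 0.00316). Against pancreas alone it was 1.15 ± 0.19 and passed, while 0.60 ± 0.19 against kidney and 0.50 ± 0.18 against lung did not (edgeR adjusted p = 0.0647 and 0.138). Itgb8, which with Itgav activates latent TGF-beta, was at 18.3, 18.5 and 16.7 CPM against from 23.4 to 128 CPM with a median of 57.1 (-1.81 ± 0.35, edgeR adjusted p = 0.00318), and Itgav at 125, 131 and 88.6 CPM against from 134 to 589 CPM with a median of 242 (-1.42 ± 0.33). Both were below all 9 other libraries. Itga6, a laminin receptor chain, rose by 0.94 ± 0.24 with overlap. Leaving out liver Treg 1, 3 or 4 gave 1 chain called higher each time, and 1, 2 and 1 lower. Itgb7 was not called without liver Treg 4, Itga6 without liver Treg 1 or 3 or without the kidney or pancreas libraries, and Itgav without liver Treg 1 or 4 or the kidney libraries.

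Of 12 suppressor molecules tested, Il10, Lag3 and Tgfb1 fell and none rose. Against kidney, lung and pancreas alone 5, 1 and 2 fell, and 0, 1 and 2 rose. Without the kidney libraries 2 rose and 2 fell against the remaining organs. Il10 (ENSMUSG00000016529.5, chromosome 1, 131019845 to 131024974), the anti-inflammatory cytokine, was near 0 in liver at 2.40, 0.0943 and 0.650 CPM. It was at 15.1, 92.99 and 107 CPM in kidney, 13.7, 4.08 and 10.8 in lung and 52.6, 77.04 and 29.7 in pancreas, all above liver (-4.93 ± 0.77, edgeR adjusted p = 4.92e-04). In blood, spleen and lymph node Treg it ran from 0.0542 to 3.31 CPM with a median of 0.723, and the difference of liver from them did not pass (0.18 ± 0.67, edgeR adjusted p = 1). Lag3, an inhibitory receptor for MHC class II, was at 3.26, 2.97 and 1.90 CPM in liver and 13.5, 16.3 and 21.6 in kidney. It was at 33.3, 38.5 and 10.3 CPM in pancreas and 2.72, 2.31 and 4.16 in lung, where it overlapped with liver (-2.05 ± 0.40). Tgfb1, transforming growth factor beta 1, was at 199, 231 and 193 CPM in liver and from 176 to 627 CPM with a median of 351 in the others (-0.81 ± 0.22, edgeR adjusted p = 0.0299). It was not called without liver Treg 1, 3 or 4 (edgeR adjusted p = 0.152, 0.0868 and 0.162), without kidney Treg 3 or 5 or without the kidney libraries, and without kidney Treg 1 the list had 5 members called lower.

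Factors of tissue repair followed in 4 of 13 cases, all lower. Il1r2, the decoy receptor for interleukin 1, was at 4.96, 1.37 and 9.76 CPM in liver and from 22.3 to 121 CPM with a median of 61.998 in the others, without overlap (-3.45 ± 0.56, edgeR adjusted p = 6.84e-04). Penk, the enkephalin precursor, was at 18.1, 21.4 and 36.7 CPM against from 53.7 to 323 CPM with a median of 155, without overlap (-2.57 ± 0.45). Areg, the growth factor amphiregulin, was at 1.40, 2.92 and 9.05 CPM in liver, and lung Treg 5 lay inside that range while the other 8 were higher (from 6.70 to 307 CPM with a median of 113; -4.59 ± 0.98, edgeR adjusted p = 0.00701). Without liver Treg 1 or 3 the list held 2 members called lower and 1 called higher.

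Of 21 helper cytokines and chemokines 5 fell and none rose. Against kidney, lung and pancreas alone 6, 1 and 6 fell. Tnfsf11, the ligand RANKL, was at 25.6, 30.04 and 21.8 CPM against from 40.6 to 153 CPM with a median of 74.4, without overlap (-1.83 ± 0.26, edgeR adjusted p = 1.67e-04). Ifng, interferon gamma, was at 0.578, 1.79 and 1.57 CPM in liver, 12.003, 93.8 and 118 in kidney, 24.5, 20.5 and 9.60 in pancreas and 2.21, 1.92 and 3.12 in lung. The lung libraries came closest, and each still lay above all 3 from liver (-3.50 ± 0.69, edgeR adjusted p = 0.00363). Tnf, Lif and Cd40lg made up the rest of the called members. Without liver Treg 1, 3 members were called lower and Lif was not, and without the kidney libraries Ifng was not.

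Receptors of costimulation and inhibition were mostly lower where called. Of 13 TNF receptors 5 fell (Tnfrsf9, Tnfrsf4, Tnfrsf1b, Tnfrsf18 and Tnfrsf10b) and Fas rose. Tnfrsf9, the costimulator 4-1BB, was at 85.7, 73.2 and 114 CPM in liver and from 289.7 to 1033 CPM with a median of 391 in the others, without overlap (-2.42 ± 0.33, edgeR adjusted p = 1.15e-04). Tnfrsf4, OX40, was at 273, 179.7 and 331 CPM against from 535 to 1388 CPM with a median of 886, also without overlap (-1.77 ± 0.30). Of 17 checkpoint and CD28 family receptors 8 fell, with Pdcd1, Ctla4 and Icos among them, and Btla rose. Against kidney, lung and pancreas alone 9, 1 and 5 of the 17 were lower, and 1, 0 and 2 were higher. Without liver Treg 1 or 3, 3 of the TNF receptors were called lower and Icos was not called, and without liver Treg 4 no TNF receptor was called higher.

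Pdcd1, the receptor PD-1, was at 84.5, 119 and 108 CPM in liver and from 196 to 1035 CPM with a median of 491 in the others, without overlap (-2.37 ± 0.34, edgeR adjusted p = 1.67e-04). Ctla4, the receptor through which Treg withdraw CD80 and CD86, was at 245, 246 and 266 CPM against from 264 to 1916 CPM with a median of 1201, with lung Treg 5 inside the liver range (-2.04 ± 0.43, edgeR adjusted p = 0.0058). Btla, which binds Tnfrsf14, was at 102, 127 and 102 CPM against from 54.4 to 92.5 CPM with a median of 71.5, above all 9 (0.60 ± 0.16, edgeR adjusted p = 0.0337). Without liver Treg 1, 3 or 4, 3, 3 and 5 members of the list were called lower, and none was called higher. Btla was also not called without kidney Treg 3 or pancreas Treg 5 or 6. Of the 22 genes of the Treg core list 7 fell and none rose. Foxp3 itself had a log2 fold change of 0.39 ± 0.21 that did not pass (edgeR adjusted p = 0.319). With limma-voom it did (0.46, adjusted p = 0.0222), and 3 genes of the core list were then called higher.

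Several genes induced by interferon rose in liver Treg. Their products include the immunity-related and guanylate-binding GTPases, which attack the vacuoles of intracellular microbes. Of 24 genes on the interferon list 7 rose, with Igtp, Gbp2, Ifi47 and Ifit2 among them, and Isg15 fell, with a median of 0.47, and in 5 the liver libraries were above all 9 others. Iigp1, Tgtp1 and Irgm2, GTPases outside the list, ranked among the first 12 of the genes that rose. Without liver Treg 1, 3 or 4, 5, 4 and 5 members of the list were called higher, and without the libraries with Xist 12. Over the 24 members, lung Treg 5 and 6 matched the liver. Their medians of log2(CPM + 1) minus the liver mean were -0.08 and 0.07, with 12 and 13 members above that mean. The median was -0.99 in lung Treg 1, between -0.74 and -0.34 in kidney and pancreas Treg and between -0.23 and -0.13 in blood Treg.

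Iigp1 had the smallest p of the genes that rose. It was at 227, 189 and 219.8 CPM in liver, 123, 77.3 and 63.7 in kidney, 59.6, 95.5 and 68.4 in lung and 54.1, 46.1 and 44.01 in pancreas. All 3 liver libraries lay above all others, and it passed against each organ (1.64 ± 0.17, edgeR adjusted p = 6.02e-06). Igtp (ENSMUSG00000078853.8, chromosome 11, 58199556 to 58207591) was at 724, 765 and 809 CPM in liver and from 239 to 534 CPM with a median of 335 elsewhere, without overlap (1.12 ± 0.14, edgeR adjusted p = 6.54e-05). Tgtp1 was at 71.4, 62.9 and 64.6 CPM against from 8.67 to 35.7 CPM with a median of 15.8 (1.91 ± 0.26) and Irgm2 at 185, 203 and 177 CPM against from 61.6 to 108 CPM with a median of 76.3 (1.24 ± 0.17), both without overlap. Near-identical copies of these GTPases exist, and how the authors' counting divided reads between them is not stated. Gbp2 was at 244, 252 and 259.8 CPM against from 61.6 to 168 CPM with a median of 88.4, above all 9 (1.34 ± 0.19, edgeR adjusted p = 1.35e-04). Ifi47 was at 756, 687 and 795 CPM in liver and 139, 499.9 and 619 in lung, higher in lung Treg 5 and 6 than in any kidney or pancreas library, and still highest in liver (1.60 ± 0.26).

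Isg15, a ubiquitin-like product of the type I interferon response, went the other way. It was at 20.6, 16.8 and 31.1 CPM in liver, 44.4, 249 and 199 in kidney, 41.3, 28.6 and 40.2 in lung and 40.05, 25.9 and 135 in pancreas (-1.69 ± 0.43, edgeR adjusted p = 0.0234), with overlap and with the highest values in kidney Treg 3 and 5. In the 3 comparisons that leave out a liver library it was not called. In blood, spleen and lymph node Treg, Iigp1 ran from 108 to 160.4 CPM with a median of 117, below liver (0.78 ± 0.17, edgeR adjusted p = 0.0214). The part of myeloid RNA in these genes was not tested beyond the shares given above, whose liver range lies inside that of the other 9 libraries.

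**Figure D4:**
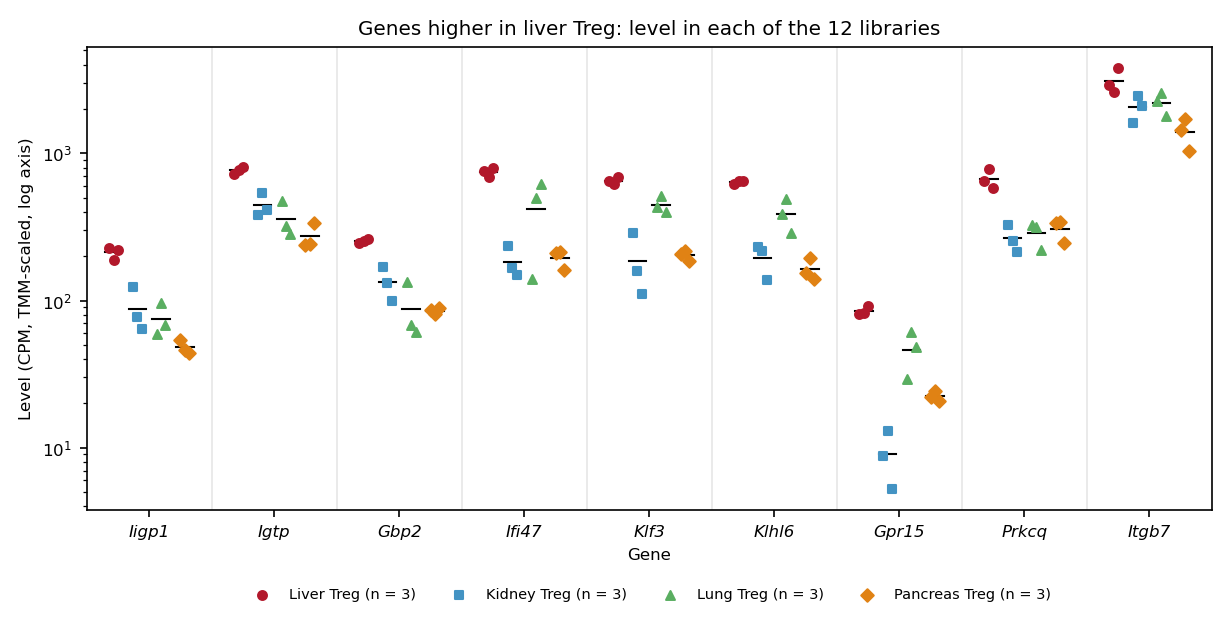
Levels in CPM on a log axis of 9 genes higher in liver Treg, with 1 point for each of the 3 libraries of an organ and a bar at their mean. The 3 liver libraries lie above all 9 others for each of the 9 genes, by the smallest margin for Itgb7.

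The promoters of 4 of these GTPase genes hold the same short element. The set of Igtp, Irgm2, Iigp1, Tgtp1, Gbp2 and Ifi47 was chosen after their values were seen, and 5 of the 6 matched a RefSeq window. The core of the interferon-stimulated response element, 2 copies of GAAA with any 2 bases between them, was found on either strand in 4 of them, beside 2.27% of all windows. TTCNNNGAA, the gamma-activated site of the interferon gamma response, was found on either strand in 3, beside 5.49%. Of the other motifs searched in this set, the AP-1 element was in 1 (Gbp2) and the rest in none. Of the 7 interferon list members called higher, 5 matched a window. Among those the response element was in 2 (Gbp2 and Igtp) and the gamma-activated site in 1 (Igtp). The windows of Igtp and Irgm2 share a long stretch of bases, so their matches are not separate cases. In Igtp (chr11:58199356-58199555, plus strand), Irgm2 (chr11:58214777-58214976, plus strand) and Tgtp1 (chr11:48992247-48992446, minus strand) the gamma-activated site precedes the response element by 2 bases. The response element lies 34 to 25, 64 to 55 and 77 to 68 bases before the start. In Gbp2 (chr3:142620463-142620662, plus strand) it lies 59 to 50 bases before, on the opposite strand. Both elements are in capitals.
Igtp: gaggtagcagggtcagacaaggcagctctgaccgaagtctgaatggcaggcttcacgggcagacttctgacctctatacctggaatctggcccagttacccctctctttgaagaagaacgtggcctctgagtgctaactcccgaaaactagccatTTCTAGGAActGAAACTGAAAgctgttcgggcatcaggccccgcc
Irgm2: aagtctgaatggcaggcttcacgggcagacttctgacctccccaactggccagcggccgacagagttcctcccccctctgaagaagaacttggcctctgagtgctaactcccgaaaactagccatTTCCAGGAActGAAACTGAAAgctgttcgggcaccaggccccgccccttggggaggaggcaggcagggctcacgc
Tgtp1: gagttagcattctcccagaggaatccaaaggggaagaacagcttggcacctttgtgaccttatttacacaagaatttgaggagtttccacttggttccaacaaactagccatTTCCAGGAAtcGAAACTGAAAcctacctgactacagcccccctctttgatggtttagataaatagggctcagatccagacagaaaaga
Gbp2: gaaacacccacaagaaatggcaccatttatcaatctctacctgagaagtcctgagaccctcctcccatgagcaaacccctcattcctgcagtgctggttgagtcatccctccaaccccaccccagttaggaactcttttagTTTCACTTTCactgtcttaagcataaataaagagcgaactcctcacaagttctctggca

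Of 20 tested genes of recirculating and resting T cells, 7 were higher (Klf3, Ms4a4b, Txnip, S1pr4, Ms4a6b, Igfbp4 and Ms4a4c) and none lower, with a median of 0.73. Against kidney alone 6 were higher, against pancreas 7 and against lung none. Against the 3 organs together 11 were called without kidney Treg 1, 12 without lung Treg 1 and 2 without the pancreas libraries. With the replicate block 3 were called, and none with the 9 other libraries as 1 group. Medians over the 20 members of log2(CPM + 1) minus the liver mean were -0.05, -1.16 and -1.62 in kidney Treg 1, 3 and 5. They were 0.22, -0.97 and -1.06 in lung Treg 1, 5 and 6 and -1.12, -1.27 and -1.04 in pancreas Treg 1, 5 and 6. In Tconv they were -0.43, 0.06 and 0.95 in kidney, lung and pancreas, against liver Tconv. Klf3, a repressor of the Kruppel-like family, was at 644, 615 and 693 CPM in liver, 431, 513 and 397 in lung, 289, 157 and 110.2 in kidney and 206, 215 and 186 in pancreas. Liver lay above all 9, with lung nearest (1.35 ± 0.16, edgeR adjusted p = 4.44e-05). Ms4a4b, a membrane protein that restrains T cell division, was at 1496, 1315 and 1942 CPM against from 339 to 1198 CPM with a median of 581, without overlap (1.23 ± 0.16, edgeR adjusted p = 9.71e-05). Txnip, an arrestin that limits glucose uptake, was at 1499, 1466 and 1495 CPM in liver, 839.5, 896 and 669 in kidney, 792, 1225 and 1025 in lung and 204, 256 and 348 in pancreas (1.30 ± 0.23). Without the pancreas libraries it was not called (0.72, edgeR adjusted p = 0.110), nor was S1pr4. S1pr4, a sphingosine receptor, was at 156, 146 and 198 CPM in liver and 193, 175 and 203 in lung, so that liver and lung overlapped, while kidney and pancreas were lower (0.69 ± 0.13, edgeR adjusted p = 0.00316).

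Other genes with small p-values belonged to none of these groups. Klhl6, an adaptor of a ubiquitin ligase in lymphocytes, was at 619, 651 and 649 CPM in liver and from 138 to 486 CPM with a median of 216 elsewhere, without overlap (1.47 ± 0.16, edgeR adjusted p = 8.84e-06). Rsrp1, a nuclear protein, was at 636, 804 and 940.0 CPM against from 43.3 to 325 CPM with a median of 130.3 (2.24 ± 0.31), and Tbxa2r, the thromboxane receptor, at 119, 119 and 163 CPM against from 16.7 to 70.4 CPM with a median of 38.7 (1.79 ± 0.25). Both were above all 9 libraries. Rsrp1 and the transcript Gm26917, whose shares of counts in liver and in blood are given above, were both high in liver. Whether they share a source was not tested. Gm26917 was not called without liver Treg 1, 3 or 4 or without 6 single libraries of the other organs. Slfn1, a Schlafen family gene of lymphocytes, rose by 1.49 ± 0.20, and Cd7, an immunoglobulin family receptor of T cells, by 1.42 ± 0.20, the latter overlapping with lung Treg 1.

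Mylip, the ligase that removes LDL receptors and a target of liver X receptors, was at 116, 136 and 104 CPM in liver and from 24.7 to 66.5 CPM with a median of 47.5 in the others, without overlap (1.32 ± 0.19, edgeR adjusted p = 1.35e-04). Abcg1, a sterol exporter under the same receptors, rose by 0.82 ± 0.17 without overlap. Of the 18 genes of the nuclear receptor and lipid sensing list, Rarg rose as well, and Sgk1, Klf9 and Per1 fell. Of 20 sterol synthesis genes Insig1 and Cyp51 fell (-1.70 ± 0.29 and -1.53 ± 0.31), both below all 9 libraries. Trib1, a pseudokinase scaffold, was at 56.6, 56.9 and 55.1 CPM against from 122 to 274 CPM with a median of 199 (-1.78 ± 0.22, edgeR adjusted p = 5.11e-05). Mmd, a membrane protein first seen in macrophages, fell by 2.17 ± 0.28, Hnrnpdl, an RNA-binding protein, by 1.31 ± 0.18 and Ier5l by 5.39 ± 0.76, all without overlap.

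Of 15 p53 target genes Cdkn1a, Plk2 and Pmaip1 fell and Sesn1 and Fas rose. Without any 1 liver library 1 was called lower, and without liver Treg 4 1 higher. Cdkn1a, the cell cycle inhibitor p21, was at 2.73, 3.87 and 2.06 CPM in liver and from 21.9 to 191 CPM with a median of 40.2 elsewhere, without overlap (-4.74 ± 0.84, edgeR adjusted p = 0.0017). Sesn1, an inhibitor of mTORC1, was at 314, 279 and 281 CPM against from 92.98 to 270.1 CPM with a median of 122, above all 9 (1.11 ± 0.18). Among 21 glycolysis and hypoxia genes Eno1, an enolase, rose by 0.67 ± 0.10, while Egln3, an oxygen sensor, and Hif1a, the factor it targets, fell by 1.85 ± 0.39 and 1.20 ± 0.27. Without liver Treg 4 neither was called lower, and without liver Treg 1 Hif1a was not. Prkcq, the kinase that links the antigen receptor to NF-kB, was the only one called of 20 antigen receptor signalling genes, at 648, 783 and 585 CPM against from 214 to 342 CPM with a median of 313, without overlap (1.23 ± 0.18, edgeR adjusted p = 1.67e-04).

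Some genes seen in the other organs were at or near 0 in liver Treg. Lpl, a lipase that frees fatty acids from lipoproteins, was at 0 in all 3 liver libraries, at 30.5, 8.43 and 17.1 CPM in kidney, 0, 86.8 and 14.5 in lung and 10.2, 19.4 and 6.81 in pancreas. Lung Treg 1 was also at 0, so the groups touch. Set against 3 counts over the 3 liver libraries, the upper 95% limit for a count of 0, the mean of the other 9 was at least 458-fold higher. Lung Treg 5 carried much of that mean, and without it the bound was 284-fold. Lpl was not called without the 4 libraries with Xist (edgeR adjusted p = 1), with the replicate block (0.110) or with only the 12 libraries (0.0823). Bounds of the same kind were at least 98.9-fold for Vegfa, the endothelial growth factor, and at least 83.4-fold for the ligand gene Efnb2. They were at least 76.6-fold for the serine protease gene Tmprss3, at least 70.6-fold for the endothelin receptor gene Ednrb and at least 45.4-fold for Bhlhe41, a paralogue of Bhlhe40. For Bhlhe41 the bound was 26.1-fold without lung Treg 1. Of these Tmprss3 and Bhlhe41 were detected in all 9 other libraries and the others in 8. The bounds hold at the 95% level, cover counting error in liver only and take the mean of the others as exact. Plaur, the urokinase receptor, had 0, 0.189 and 0 CPM in liver and from 2.39 to 18.9 CPM with a median of 6.54 in the others. All of these passed against kidney, lung and pancreas each. Against the 3 organs together Vegfa and Bhlhe41 were not called without liver Treg 1, 3 or 4, nor Plaur without liver Treg 1 or 4. Some markers of other cells were at 0 in liver as well. Of 11 endothelial markers 6 were at 0 in all 3 liver libraries, with bounds from 1.93-fold for Vwf to 96.2-fold for Kdr. The other 5 were detected in liver. Together the 11 made up 0.0189% to 0.0237% of counts in liver, inside the range of the other 9 libraries (0.00594% to 0.0306%). The median log2 fold change of the 11 was -3.96, with none called. Whether RNA of other cells in the other organs carried the genes of this paragraph was not tested.

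The organs of the reference were also taken singly. Against kidney 251 genes were higher in liver (1.4%) and 476 lower (2.66%), against lung 231 (1.29%) and 260 (1.45%), and against pancreas 254 (1.42%) and 381 (2.13%). Leaving out liver Treg 1, 3 or 4 gave 325, 361 and 336 called genes against kidney, 127, 71 and 236 against lung, and 346, 347 and 334 against pancreas. Leaving out lung Treg 1, whose early response genes were high, gave 1700 against lung and 1120 against kidney. Without kidney Treg 1, 3 or 5 the kidney count was 1102, 350 and 277, and without pancreas Treg 1 or 5 the pancreas count was 385 and 418.

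These 3 comparisons use the same liver libraries, so their values are set side by side. Against kidney the 3 higher genes with the smallest p were Klf3 (1.81 ± 0.22), Klhl6 (1.72 ± 0.21) and Gpr15 (3.23 ± 0.42), and the 3 lower ones Spry1, Ccr8 (-4.99 ± 0.47) and Nfkbid (-4.60 ± 0.49). Against lung Gbp5, a guanylate-binding GTPase, was at 85.3, 71.5 and 69.6 CPM in liver and 21.6, 25.5 and 11.4 in lung, without overlap (1.95 ± 0.27, edgeR adjusted p = 9.36e-04). In kidney Gbp5 was at 73.1, 73.1 and 72.1 CPM, inside the liver range (0.05 ± 0.26, edgeR adjusted p = 0.975). Against pancreas Iigp1 (2.14 ± 0.23), Klhl6 (1.98 ± 0.22) and S1pr4 (1.37 ± 0.17) led the higher genes. The lower genes were led by Pnliprp2, a lipase of acinar cells, and then by Spry1 and Ccr8 (-4.20 ± 0.45). The acinar markers moved with this comparison, and 13 of 21 were also called lower against the 3 organs together. With the markers of other cells removed, 584 genes were called against pancreas and 751 in the comparison with the 3 organs.

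**Figure D5:**
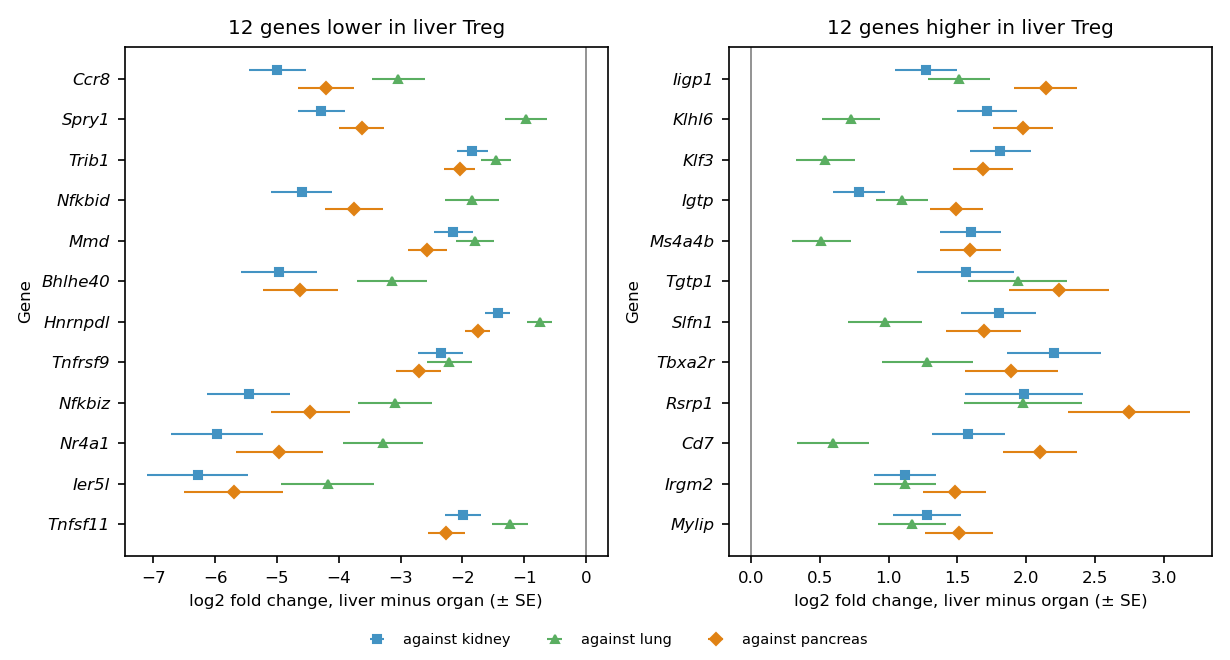
Log2 fold changes of liver Treg against kidney, lung and pancreas Treg each (horizontal axis, points with SE) for the 12 lower and 12 higher genes named by rank. Bhlhe40 lies at -4.96, -3.13 and -4.62 and Iigp1 at 1.27, 1.51 and 2.14, while Spry1, Klf3 and Cd7 lie nearer to 0 against lung than against the other organs.

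None of 15 heat shock, 14 cytotoxic, 24 cell cycle, 30 ribosomal protein or 25 oxidative phosphorylation genes was called by edgeR. Without lung Treg 6, 2 heat shock genes were called lower, and without lung Treg 1, 2 cytotoxic genes higher. At an unadjusted p below 0.05 there were 2, 4, 0, 0 and 0. DESeq2 called 2 heat shock genes, both lower, and none in the other 4 lists. The limma-voom alternative called 2 heat shock and 2 cell cycle genes lower, 1 cytotoxic gene in each direction and 20 ribosomal protein genes higher. Of 15 TGF-beta pathway genes 4 fell. Leaving out liver Treg 1, 3 or 4 gave 1, 2 and 1 of these genes called lower. Medians were -0.42 for heat shock, 0.34 for ribosomal protein and -0.17 for cell cycle genes.

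A comparison with Treg of blood, spleen and lymph node, which uses the same 3 liver libraries, places these levels. There 171 genes were higher in liver Treg (0.955%) and 29 lower (0.162%). Leaving out liver Treg 1, 3 or 4 gave 86, 94 and 52 called genes in all. Of 18 S100, annexin, galectin and cytoskeletal genes, which rise in effector T cells, 11 were higher, whereas against the solid organs 1 was. The latter was not called without liver Treg 1 or 4. Of the early response list 1 was higher and none lower, with a median of 0.42. Among the 13 repair and alarmin genes 5 were higher and none lower, with a median of 1.10. Suppressor molecules were higher in 3 of 12 cases and lower in none. Of the 17 tissue homing receptors 7 were higher, among them Ccr2 and Cxcr3, receptors for inflammatory chemokines, and Cxcr3 was not called without liver Treg 4.

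Ccr2 was at 257, 249 and 249 CPM in liver, from 20.8 to 109.5 CPM with a median of 40.1 in the 9 lymphoid and blood libraries and from 61.9 to 309 CPM with a median of 176 in the 9 solid organ libraries. It rose against the former (2.46 ± 0.33, edgeR adjusted p = 4.21e-04), without overlap, and did not pass against the latter (0.57 ± 0.35, edgeR adjusted p = 0.391). Tagln2, an actin-binding protein, had log2 fold changes of 1.11 ± 0.17 (edgeR adjusted p = 0.00131) and 0.01 ± 0.17 (edgeR adjusted p = 1) in the same order. Itgb7 rose in both, by 1.09 ± 0.14 against the lymphoid sources (edgeR adjusted p = 4.21e-04). Klf2, the factor that keeps T cells in circulation, was at 1769.7, 1882 and 2120.0 CPM in liver and from 480.4 to 2344 CPM with a median of 638 in the lymphoid sources. It passed against these (1.09 ± 0.27, edgeR adjusted p = 0.041) and not against the solid organs (0.70 ± 0.27, edgeR adjusted p = 0.15). Against the lymphoid sources it was not called without liver Treg 1, 3 or 4 (edgeR adjusted p = 0.108, 0.129 and 0.184), without the filter on low counts or with the replicate block (0.404).

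Tconv of the same organs, with 1 library each and so with no test of their own, showed part of the same pattern. Of 22 early response genes 21 were lower in liver Tconv than in the mean of the other 3 organs, with a median log2 difference of -1.71, beside 54.9% of the 17909 genes lower and a median of -0.06. Kidney and pancreas Tconv carried this difference, with medians of 3.78 and 2.42 above liver Tconv. Lung Tconv was as low as liver, at -0.16, with 9 of the 22 above liver. Bhlhe40 was at 231, 1322, 212 and 352 CPM in liver, kidney, lung and pancreas Tconv. Ccr8 was at 12.98, 238, 74.5 and 128 CPM in that order and Iigp1 at 71.02, 33.6, 49.4 and 49.8. Liver was lowest for Ccr8 and highest for Iigp1, as in Treg, whereas Bhlhe40 was lowest in lung.

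Whether the liver effect differed between Treg and Tconv was tested across all 40 libraries, with the spread of Tconv taken from Treg. Of 17924 genes 9 were higher in the Treg effect (0.0502%) and 40 lower (0.223%), and 27, 23 and 16 in all without liver Treg 1, 3 or 4. Without kidney Treg 1 there were 92, without lung Treg 1 90 and without pancreas Treg 5 30. None of the 22 early response genes was called in edgeR, and 2 had an unadjusted p below 0.05. Cd160, an inhibitory receptor of cytotoxic cells, was at 1.90, 1.89 and 3.14 CPM in liver Treg and from 1.02 to 21.4 CPM with a median of 6.50 in the other 9. Its Tconv levels were 239, 37.3, 11.7 and 7.83 CPM in liver, kidney, lung and pancreas, and the effects differed by -5.32 ± 0.53 (edgeR adjusted p = 5.50e-06). The 6 markers of CD8, NK and gamma delta T cells made up 0.0314% of counts in liver Tconv and 0.00285% to 0.00469% in liver Treg. Liver Tconv held 12745701 counts, and Tconv of the other organs held 18915018 to 21508771. The part of such cells or of depth in these differences was not tested. Id2 was highest in liver among Tconv (1933, 1030.3, 1229 and 235 CPM) and lowest in liver among Treg, a difference of -3.45 ± 0.62 (edgeR adjusted p = 0.0118). Neither Bhlhe40 (-3.26 ± 0.81, edgeR adjusted p = 0.0874) nor Foxp3 (2.42 ± 0.66, edgeR adjusted p = 0.137) passed. Both did without lung Treg 1 (0.0426 and 0.0424) and without the kidney libraries (0.0463 and 0.0102), and Bhlhe40 also without lung Treg 5 (0.0341), without the libraries with Xist (0.00815), with DESeq2 (0.0108) and with limma-voom (0.0303).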

How the data were processed

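RNA of sorted Treg (30 libraries) and Tconv (10 libraries) was sequenced from the 3′ end (QuantSeq kit), per the labels' protocols. The deposited values are raw counts per gene. Per the submitters' processing notes, which give no versions, the authors used FastQC, MultiQC, Trim Galore, STAR, featureCounts, DESeq2 and DESeq with build mm10. The annotation release and the use of strand are not given in the sources used here, so reads of overlapping genes cannot be told apart.

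The members and gene lists were chosen with earlier results of these data known. In R 4.3.3, edgeR 4.0.16 (filterByExpr, TMM, robust quasi-likelihood F test) was run on all 30 Treg libraries together, each source with its own mean. A gene was called where the p adjusted by Benjamini-Hochberg was below 0.05. The contrasts set liver against the mean of kidney, lung and pancreas, against each of them, and against the mean of blood, spleen and lymph node. The difference between Treg and Tconv used a fit of all 40 libraries. A log2 fold change is liver minus reference, ± its standard error. Replicates of 1 source differed by 31.7 to 363 times the variance of counting alone, so none was counted as a duplicate. The same steps were tested on simulated data.

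Named genes are the 12 higher and 12 lower of smallest p whose call came with a log2 fold change of 1 or more in size, 3 each for single organs, 10 each for genes called against all 3 organs, 5 each for Treg against Tconv, and up to 6 members per list, beside Itgb7, Bhlhe40, Il10 and Foxp3. Predicted genes, receptor segments and markers of other cells were left out. Some genes within this rule are named by symbol only, and the lymphoid comparison names members of lists. There were 28 T cell lists and 14 lists of other cells, and summed shares are given for only some of the latter. Of those not given above, kidney tubule markers reached 0.229% of counts in kidney and 0.000536% in liver. Lung epithelium markers reached 0.0422% in lung and 0.00100% in liver. Replicate numbers did not pair the samples.

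Promoters of 200 bases and their starts are from RefSeq, build GRCm38.p6. A gene counted as holding a motif where any of its windows did, whereas the shares beside it are over single windows. Alternatives, 24 in all, included DESeq2 1.42.0, limma-voom (limma 3.58.1), other scaling, no filter, fewer libraries and a replicate block. Figures were drawn with matplotlib 3.10.9.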

Additional observations from a re-analysis of the deposited data

Results flagged for a closer look

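For 8 genes the liver effect differed between Treg and Tconv by edgeR's quasi-likelihood test of the interaction with Benjamini-Hochberg adjustment. Each value is the log2 difference between liver and the mean of kidney, lung and pancreas in Treg minus the same difference in Tconv, where each source has 1 Tconv library.

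Cd160, an inhibitory receptor, differed by -5.32 ± 0.53 (SE), with 239 CPM in liver Tconv and at most 3.14 CPM in liver Treg. The ranges over the alternatives kept an adjusted p of at most 0.00155. Cd38, an ectoenzyme that breaks down NAD, differed by -3.37 ± 0.53, with 236, 105, 38.6 and 19.7 CPM in liver, kidney, lung and pancreas Tconv and 41.7, 54.2 and 36.3 CPM in liver Treg. Id2 differed by -3.45 and Mmd by -2.54. Zcchc18 differed by -3.46, with 154, 52.9, 12.4 and 13.7 CPM in Tconv in the same order and 53.5, 48.9 and 47.7 CPM in liver Treg. Sh3gl3, an endophilin, differed by -5.33 and Nsmf by -4.21, with lung Tconv at 0.0512 and 0.205 CPM. Kcnn4, a potassium channel that sustains calcium entry, went the other way by 1.53, with 170.5, 305, 316 and 640.0 CPM in Tconv and 414, 399.8 and 552 CPM in liver Treg.

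Of 22 alternatives, Cd160, Zcchc18 and Cd38 passed in all, Sh3gl3 missed in 1, Id2 in 2, Nsmf in 3, Kcnn4 in 4 and Mmd in 5, and none changed sign. Whether the single Tconv libraries stand for their organs was not tested. In liver Tconv the markers of CD8, NK and gamma delta T cells took 0.0314% of counts, and at most 0.00469% in liver Treg.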

How the results depend on the processing

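With DESeq2 1539 genes were called against the 3 organs (482 higher, 1057 lower), 1434 against kidney, 1496 against lung, 1322 against pancreas, 519 against lymphoid sources and 249 for Treg against Tconv. With limma-voom the numbers were 2505 (1394 higher, 1111 lower), 3183, 1231, 2764, 1412 and 90. With only the 12 libraries they were 128 (66 and 62), 127, 0 and 182 for the organs, and the 0 of edgeR against lung stands beside 2333 genes at an unadjusted p below 0.05 in that fit and the 1496 of DESeq2 on all 30 libraries. With the other organs as 1 group 47 genes were called, 29 higher and 18 lower. Without a filter 321 were called against lung. Without the kidney libraries 263 genes were higher than in the remaining organs, and 156 differed between Treg and Tconv. Without the lung libraries 10 differed between Treg and Tconv. Without the 4 libraries with Xist, an alternative chosen after seeing the data, the counts were 1746 (906 higher, 840 lower), 1235 against kidney, 1263 against lung, 334 against lymphoid sources and 327 for Treg against Tconv. With the replicate block 193 were called (81 higher, 112 lower), 479 against kidney, 49 against lung, 260 against pancreas, 8 against lymphoid sources and 7 for Treg against Tconv. The numbers only name the samples: over 11 pairs with the same number the correlation of deviations was -0.07 to 0.11, and 3 of 12 libraries correlated best with their own number. Leaving out 1 library at a time gave 316 to 1075 called genes, 162 to 550 higher, 151 to 549 lower, 277 to 1120 against kidney, 71 to 1700 against lung, 334 to 930 against pancreas, 52 to 288 against lymphoid sources and 16 to 92 for Treg against Tconv. Fewer samples enter these fits; the cause of the other shifts was not tested. Of 2275 values of the 95 called genes, 2023 passed, 252 did not and 0 changed direction. The block kept 62 of the 95 and the single group 21. Depth limits genes at 0 in liver, where 3 counts stand for 0.0470 CPM.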

Other observations

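Hbegf, a growth factor of the EGF family, was at 153 CPM in liver Treg 4 and at 0.537 and 0.189 CPM in liver Treg 1 and 3, and at most 21.5 CPM in the other 9 libraries. Peyer's patch Treg held 1 library with early response genes within the range of LPL and IEL Treg (2.35 above the liver mean on the log2 scale) and 2 near the liver (0.27 and 0.05). Expression of Ddx3y, a Y-linked gene, was 47.2 to 65.0 CPM in liver Treg and 104 to 190 CPM in the 5 other organ libraries without Xist. In blood Treg 2, 4 and 5 it was 49.1, 50.4 and 68.9 CPM, and the labels give no sex.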
